A study of Mus musculus with 6 samples.

Results

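The genes described are 52 cytokines, chemokines, their receptors, acute-phase proteins and the feedback genes they induce, out of 49671 genes in a table of read counts from cultured mouse fat cells. They were taken by symbol from a list of pathway members, and all 52 were found in the table. No measured value entered that rule, but the list was chosen with earlier results of these data known. A filter on low counts left 49 of them to be tested, and Ccl20, Cxcl2 and Il1b fell below it.

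The cells were a single immortalized line made from preadipocytes of inguinal fat of 3 month old C57BL/6 mice that carried floxed Tcf7l2 (F/F), and the preadipocytes had been sorted as positive for CD34, Sca1 and CD29 and negative for CD31, CD45 and Ter-119. Tcf7l2 is the gene of a transcription factor that acts in Wnt signalling. All libraries, controls included, share the floxed alleles, SV40 large T antigen and CreERT2, a Cre recombinase that is active only with 4-hydroxytamoxifen. The 3 control libraries (labelled wild type, EtOH) came from cells given ethanol and the 3 knockout libraries (labelled Tcf7l2 Knock out cells, 4-OH-Tam) from cells given 4-hydroxytamoxifen, for 24 h starting 2 days before differentiation. Both groups were differentiated with 1 µM dexamethasone, 0.5 mM isobutylmethylxanthine and 5 µg/mL insulin, and were collected at day 8. Dexamethasone is a glucocorticoid, a class of drug that acts on many inflammatory genes, and it was present in both groups. A further agent, named by a code and dosed at 5 nM, appears in the labels of every library; its code number goes up by 1 from library to library, so the controls hold the 3 lowest codes, and whether it was the same agent throughout is not settled. Deletion and drug coincide in every library and cannot be told apart, and no label names a separate culture for each library, so p-values measure only how far these libraries scatter, which may be technical.

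Adipocytes and their precursors secrete many immune signals. Chemokines are small secreted proteins that draw leukocytes, and cytokines such as interleukin-6 and interleukin-1 act through receptors that feed into 2 main routes. One route runs through JAK kinases and STAT factors and is shut off by SOCS proteins. The other runs through NF-kappaB and is shut off by Nfkbia and Tnfaip3. Acute-phase proteins, best known from liver, are also made by fat cells.

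Total counts ran from 26621293 to 33484764 per library. Control replicate 3 and knockout replicate 2 stood apart from the other 4 libraries on the second principal component (15.9% of the variance, at -15.1 and -14.1), and results are also given without them where a call changes. Tcf7l2 itself was at 7.65 ± 1.49 CPM (counts scaled for library size, with TMM factors; mean ± SD, n = 3) in control and 6.12 ± 0.638 CPM in knockout cells and missed the threshold (edgeR adjusted p = 0.125, log2 fold change -0.32, SE 0.14), a whole-gene value that does not measure the loss of single exons. All 8 adipocyte markers, among them Adipoq, Plin1 and Fabp4, were called higher in knockout cells, with a summed level of 5788 to 6048 CPM in control and 8432 to 10147 CPM in knockout libraries. Of the leukocyte markers, the macrophage genes Adgre1, C1qa and C1qb and the lymphocyte genes Cd3e, Cd4 and Ms4a1 had 0 counts in all 6 libraries, while 4 of the 11 macrophage markers (Cd68, Csf1r, Cd14 and Lyz2) passed the filter on low counts. The 11 macrophage markers summed to 6.59 to 7.98 CPM in control and 7.29 to 8.40 CPM in knockout libraries, ranges that overlap. In such bulk libraries, fewer cells of a type and less RNA per cell cannot be told apart.

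More members were higher than lower in knockout cells. A gene was called where edgeR's quasi-likelihood test, fitted to the whole table, gave a Benjamini-Hochberg adjusted p under 0.05. Among the 49 tested members there were 18 rises and 4 falls, and 27 members were not called. Over all 14946 tested genes, 11.9% were called higher and 10.5% lower (22.4% in all), against 36.7%, 8.16% and 44.9% of the tested members. The median log2 fold change was 0.16 over the tested members and -0.0017 over all tested genes. Of the 22 called members, 13 changed at least 1.5-fold and 3 at least 2-fold (Cxcl5, Lcn2 and Il1rn). The values of the groups did not overlap in 28 of the 49 tested members, where 37.9% of all tested genes show no overlap. These 28 were 21 of the 22 called members, where it follows largely from the call itself, and 7 members not called. Among the control libraries replicate 3 held the highest CPM in 25 of the 49 tested members, and among the knockout libraries replicate 2 did so in 23. Without control replicate 1 the number of members called higher was 10, and without control replicate 2 it was 11. Calls in the whole table fell in these fits as well, from 3346 to 2145 and 2428.

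**Figure D1:**
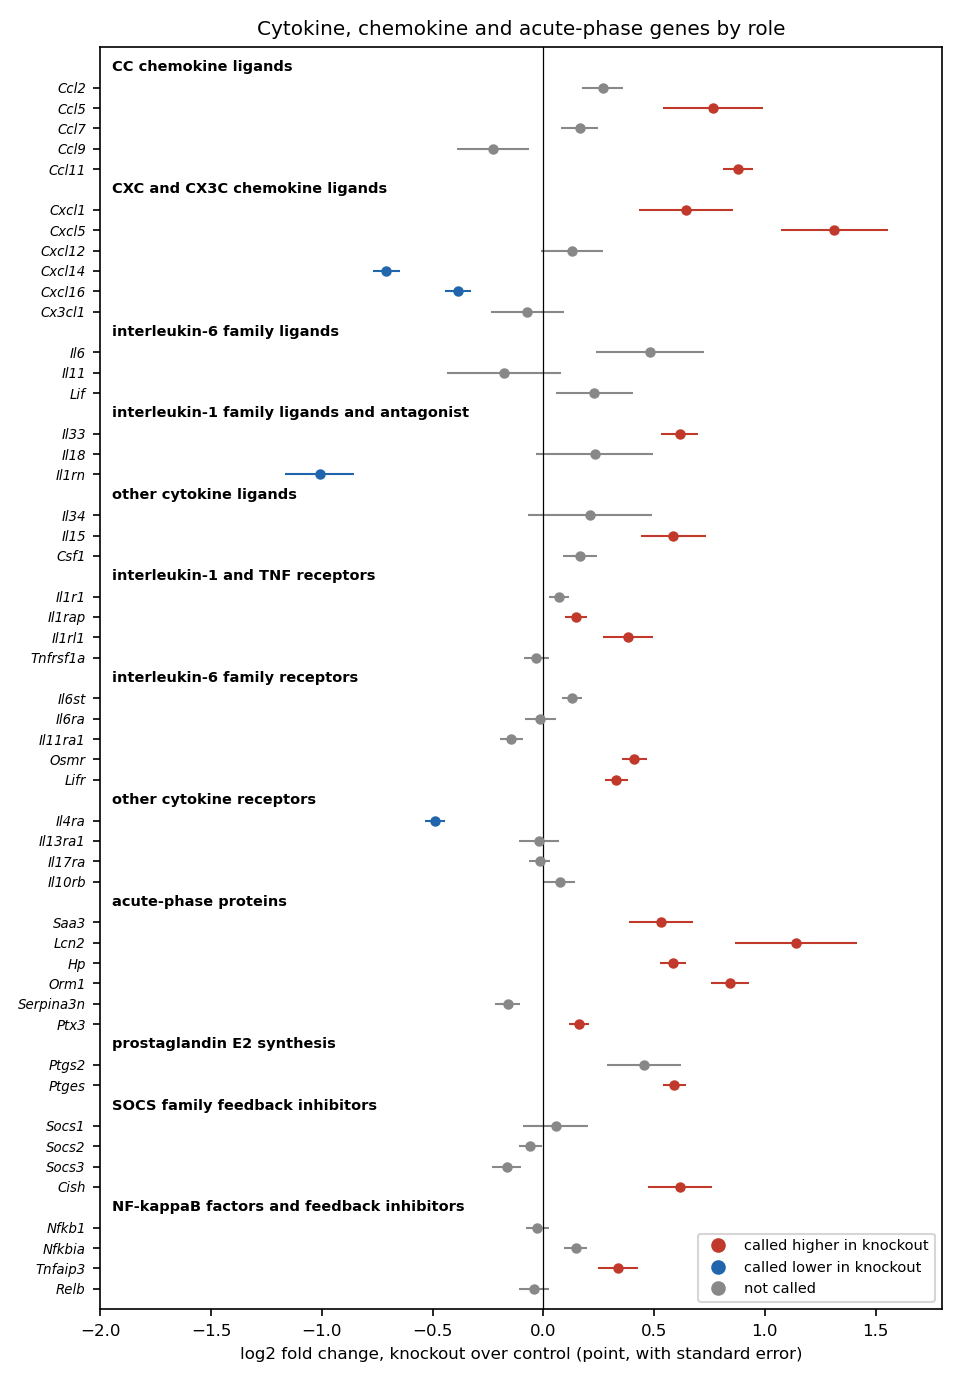
Log2 fold change of each tested member, knockout over control, with its standard error, grouped by role and coloured by call. Acute-phase genes lie mostly to the right, Il1rn, Cxcl14, Il4ra and Cxcl16 are the 4 called members to the left, and the interleukin-6 family ligands hold no called member.

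Not all of these calls were equally firm. Of the 22, 12 kept their call and direction in each of 15 alternative fits: Ccl11, Cxcl5, Il33, Osmr, Lifr, Hp, Orm1 and Ptges (higher) and Cxcl14, Cxcl16, Il1rn and Il4ra (lower). The other 10 lost it in at least 1 fit, as given with each gene except for the threshold of 0.01. At that threshold Ccl5, Cxcl1, Il15, Il1rap, Il1rl1, Saa3, Ptx3 and Tnfaip3 lost the call.

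**Figure D2:**
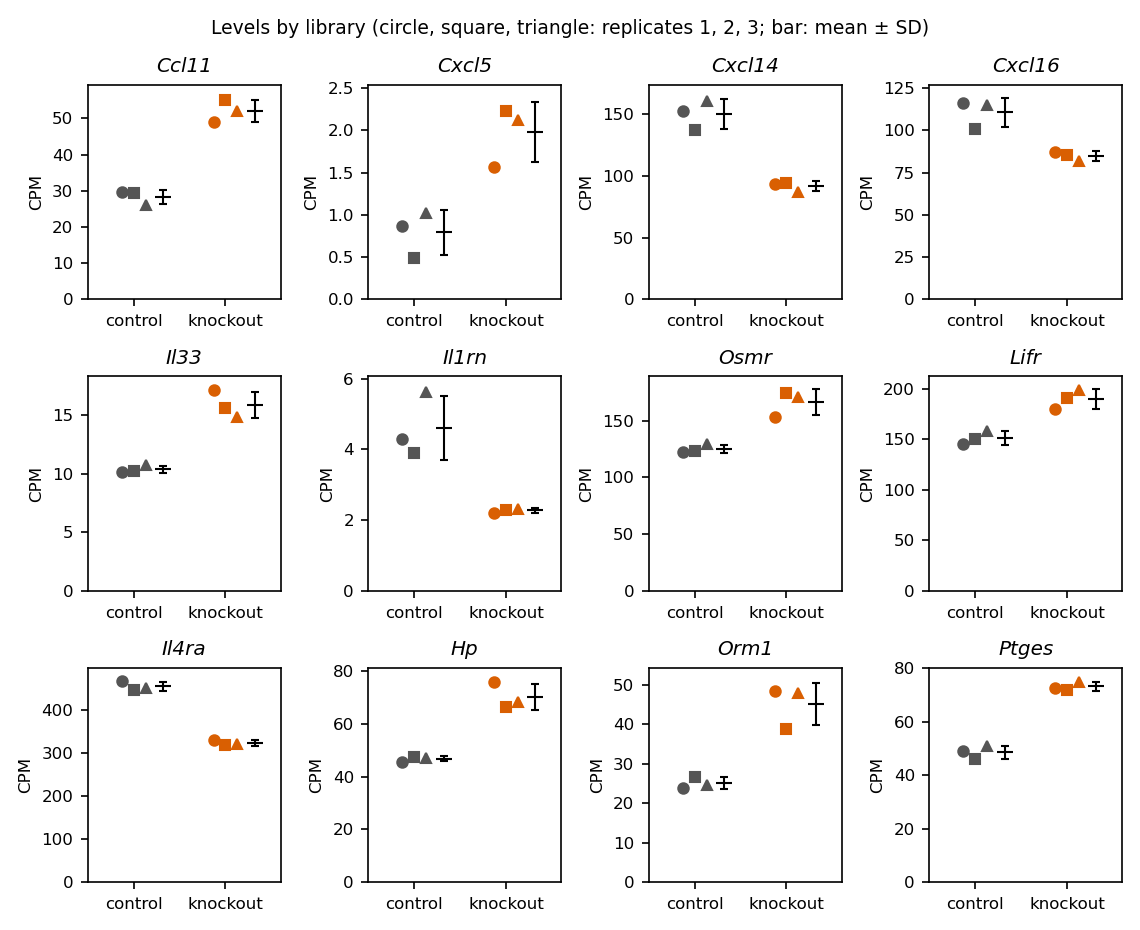
CPM in each library for the 12 members whose call held in every alternative fit, with the mean and SD of each group (n = 3). The control and knockout libraries do not overlap in any of the 12 panels, which follows largely from choosing the genes by their calls in these libraries. Each axis starts at 0.

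Levels were compared between genes as CPM per kilobase of exon, which scales for length. In control cells Serpina3n, a secreted protease inhibitor, stood highest at 239 ± 15.2 CPM per kilobase (SD, n = 3). It was followed by the chemokine Cxcl14 (82.1 ± 6.62) and the interleukin-4 receptor Il4ra (75.6 ± 1.81), which lay within 1 SD of each other, and by the macrophage growth factor Csf1 (62.9 ± 4.41). In knockout cells Cxcl14 was in place 7 with 50.2 ± 2.22 and Il4ra in place 6 with 53.8 ± 1.13, while Orm1 moved from place 13 (32.4 ± 1.83) to place 3 (58.2 ± 6.91 CPM per kilobase). Knockout places 3 to 6, held by Orm1, Ccl7 (56.8 ± 7.76), Il6st (55.0 ± 1.61) and Il4ra, differed by less than the SD of Orm1, so their order is not resolved. At the other end, 14 members were under 1 CPM per kilobase in control cells, among them Il6, Il11, Lif, Cxcl1, Cxcl5 and Lcn2. Il1b, the prototype inflammatory cytokine of macrophages, had 0 counts in all 6 libraries, which allows up to 3 counts or 0.0896 to 0.113 CPM per library (counting error only). Ccl20 had 0 counts in control and 0, 1 and 2 in knockout libraries, and Cxcl2 had 3, 1 and 0 in control and 3, 0 and 0 in knockout libraries.

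**Figure D3:**
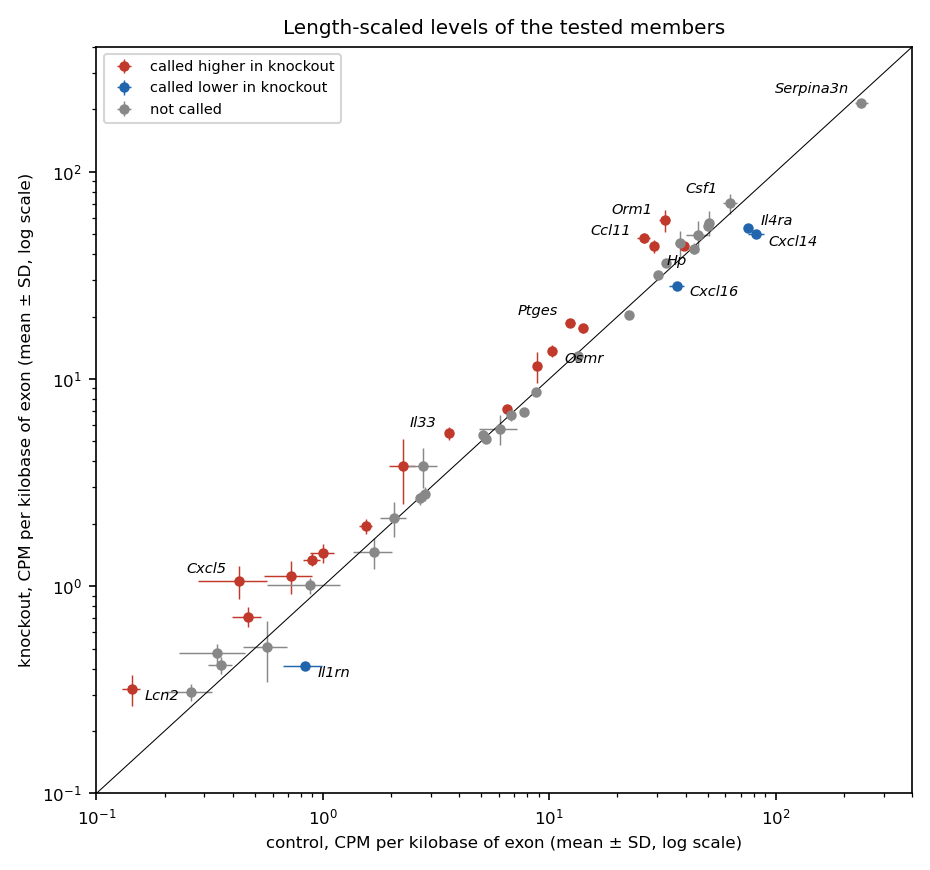
Mean CPM per kilobase of exon of the 49 tested members in knockout against control cells, on log scales with SD bars (n = 3), where the line marks equal levels. Levels span from about 0.143 for Lcn2 to 239 for Serpina3n in control cells, and called genes occur at both low and high levels.

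Of the acute-phase genes, 5 of 6 rose and none of the 6 fell. Orm1, which encodes the plasma carrier protein orosomucoid (ENSMUSG00000039196, GRCm38 chromosome 4, 63344560 to 63348163, plus strand), was at 24.0, 26.7 and 24.7 CPM in control and 48.5, 38.9 and 47.9 CPM in knockout libraries. The lowest knockout library lay well above the highest control library, and the rise was 1.79-fold (log2 fold change 0.84, SE 0.084, edgeR adjusted p = 1.46e-05). Orm2 and Orm3 are close paralogs of Orm1, so its counts are uncertain wherever reads fitted more than 1 of them.

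Haptoglobin (Hp, ENSMUSG00000031722, chromosome 8, 109575128 to 109579172, minus strand), which binds free haemoglobin, was at 45.7, 47.4 and 47.1 CPM in control and 75.8, 66.4 and 68.1 CPM in knockout libraries. The groups were again apart, by 1.5-fold (log2 fold change 0.59, SE 0.059, adjusted p = 1.04e-05). Lcn2, lipocalin-2, which binds bacterial iron carriers, rose 2.21-fold but from very few reads, with 12, 10 and 11 counts in control and 28, 21 and 24 in knockout libraries (adjusted p = 0.00878). DESeq2 did not call Lcn2 (adjusted p = 0.0633). Saa3, a serum amyloid A of fat and macrophages, was at 2.92, 2.30 and 2.60 CPM in control and 3.48, 4.24 and 3.62 CPM in knockout libraries, 1.45-fold higher (adjusted p = 0.0167). Saa3 was not called by DESeq2 (adjusted p = 0.0509), without control replicate 2 (0.0825), without knockout replicate 2 (0.0562) or without both libraries that stood apart (0.0774).

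The pentraxin Ptx3, a soluble pattern recognition protein, differed by the smallest step of the 5, from 106 ± 2.15 to 118 ± 3.90 CPM or 1.12-fold (edgeR adjusted p = 0.025), and lost the call when any 1 library other than knockout replicate 2 was left out (adjusted p = 0.0508 to 0.091). Serpina3n, the most abundant member, was at 500.2, 460 and 522 CPM in control and 417, 463 and 445 CPM in knockout libraries. Its groups overlapped and it was not called (log2 fold change -0.16, SE 0.057, adjusted p = 0.0597). It was called lower without control replicate 2 (adjusted p = 0.0308), without knockout replicate 2 (0.0148), without both libraries that stood apart (0.032), without a filter on low counts (0.025) and with total count scaling (0.0475). All 8 adipocyte markers rose in the same libraries as these acute-phase genes. The 8 neutrophil and mast cell markers summed to 0.774 to 1.36 CPM in control and 1.61 to 2.17 CPM in knockout libraries. Only 1 of the 8 passed the filter on low counts, and it was called higher (log2 fold change 0.78). Another 5 (S100a9, Retnlg, Csf3r, Cpa3 and Mcpt4) had 0 counts in all libraries. The part of either list in the result was not tested.

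Promoter sequences of members were looked up because several acute-phase genes and cytokines were called higher. RefSeq windows on build GRCm38.p6 were found for 37 of the 52 members, and the 250 bases before each start were searched on both strands for 4 motifs. TTGCNNAA, a form of the C/EBP site, was present for 8 of 37 members and for 10.8% of all 27025 genes with a window. By call, it was present for 5 of 12 members called higher (Saa3, Lcn2, Ptx3, Il33 and Il1rl1), 0 of 3 called lower and 3 of 19 not called (Il6, Il1r1 and Ptgs2). Of these 5, only Il33 kept its call in every alternative fit. Osmr, Lifr and Ptges, whose rises also held in every fit, have windows without a match. A match is only a description of these letters. Windows of Ccl11, Cxcl5, Hp and Orm1, whose rises held in every fit, were not used here. The Saa3 window (chr7:46715677-46715926, minus strand) has 24 bases of an annotated Saa3 exon at its end, and the Ptx3 window (chr3:66219637-66219886, plus strand) holds no annotated exon and lies in an intron of Veph1. Both are shown 5′ to 3′ with the TTGCNNAA match on either strand in capitals.
Saa3: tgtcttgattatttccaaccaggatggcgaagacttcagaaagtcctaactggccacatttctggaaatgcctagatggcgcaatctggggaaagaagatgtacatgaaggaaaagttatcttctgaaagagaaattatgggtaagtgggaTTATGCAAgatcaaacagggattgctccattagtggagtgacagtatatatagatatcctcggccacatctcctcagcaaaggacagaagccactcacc
Ptx3: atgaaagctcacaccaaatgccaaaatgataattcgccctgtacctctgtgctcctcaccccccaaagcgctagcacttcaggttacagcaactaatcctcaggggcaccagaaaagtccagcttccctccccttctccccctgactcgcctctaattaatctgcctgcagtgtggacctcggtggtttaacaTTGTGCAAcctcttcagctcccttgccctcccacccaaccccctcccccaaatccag

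Chemokine genes went in both directions. Of 5 tested CC chemokines 2 rose and 0 fell, and of 6 tested CXC and CX3C chemokines 2 rose and 2 fell. Eotaxin (Ccl11, ENSMUSG00000020676, chromosome 11, 82057823 to 82062955, plus strand), which attracts eosinophils, was at 29.6, 29.3 and 25.99 CPM in control and 49.1, 55.1 and 52.0 CPM in knockout libraries. Every knockout library was far above every control library, and the rise was 1.84-fold (log2 fold change 0.88, SE 0.067, adjusted p = 1.37e-06).

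Ccl11 lies in a row with 2 other members on the same strand. The gene of the monocyte attractant Ccl2 ends 8258 bases before Ccl7, another monocyte attractant, and Ccl7 ends 10297 bases before Ccl11. Ccl2 was at 45.1, 40.7 and 42.8 CPM in control and 45.3, 60.0 and 49.7 CPM in knockout libraries. Its groups met at 45.1 and 45.3 CPM, and it was not called (edgeR adjusted p = 0.0649, log2 fold change 0.27, SE 0.093). Ccl7 was at 40.6 ± 1.25 and 45.5 ± 6.21 CPM with overlapping groups and was not called (adjusted p = 0.2). Both were highest in knockout replicate 2 and were called higher without knockout replicate 1 (adjusted p = 0.00638 for Ccl2 and 0.0165 for Ccl7). Without knockout replicate 2 the log2 fold change was 0.14 for Ccl2 and 0.058 for Ccl7, and without both libraries that stood apart it was 0.14 and 0.041, with neither gene called. Ccl2 was also called by DESeq2 (0.0274) and without a filter on low counts (1.63e-04).

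The change of Ccl11 relative to its neighbours was compared within libraries. These ratios were added after seeing the data, in which Ccl11 was called and Ccl2 and Ccl7 were not. That the ratios with Ccl11 on top lie apart therefore follows largely from the choice of genes. The CPM ratio of Ccl11 to Ccl2 was 0.655, 0.719 and 0.607 in control and 1.09, 0.918 and 1.05 in knockout libraries. The ratio of Ccl11 to Ccl7 was 0.697 ± 0.0382 in control and 1.15 ± 0.093 in knockout libraries (SD, n = 3). For the ratio of Ccl7 to Ccl2 the values were 0.947 ± 0.0322 and 0.881 ± 0.0279. The groups did not overlap in any of the 3 ratios, with differences of 0.62, 0.73 and -0.10 on the log2 scale. An exact 2-sided permutation test gave p = 0.1 for each (0.1 after Benjamini-Hochberg adjustment over the 3 ratios), the smallest that 3 libraries against 3 allow, so the design cannot reach 0.05 here.

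**Figure D4:**
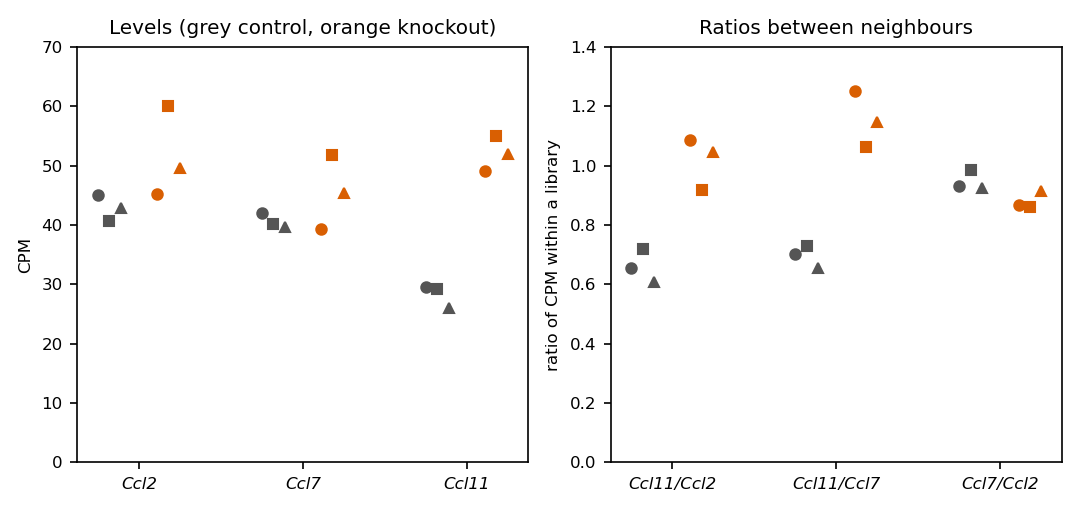
Left, CPM of the neighbouring chemokine genes Ccl2, Ccl7 and Ccl11 in each library (grey control, orange knockout; circle, square and triangle for replicates 1, 2 and 3). Right, CPM ratios between them within each library, where the ratios with Ccl11 on top lie between 0.607 and 0.731 in control and between 0.918 and 1.25 in knockout libraries.

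Ccl5, a T cell attractant, was at 2.11, 1.91 and 2.49 CPM in control and 2.88, 5.10 and 2.99 CPM in knockout libraries. Knockout replicate 2 held the highest value, and the rise of 1.70-fold (adjusted p = 0.0321) was not called without that library (log2 fold change 0.44, adjusted p = 0.0812), without control replicate 1 (0.125) or without control replicate 2 (0.129). Ccl9 was at 5.14 ± 1.02 and 4.43 ± 0.761 CPM, not called.

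Among the CXC chemokines, Cxcl14 (ENSMUSG00000021508, chromosome 13, 56288643 to 56296551, minus strand), a chemokine of epithelia and fat, was at 152, 137 and 161 CPM in control and 93.6, 94.3 and 87.0 CPM in knockout libraries. The lowest control library was above all knockout libraries, and the fall was 1.64-fold (log2 fold change -0.71, SE 0.061, adjusted p = 3.00e-06). Cxcl16, made as a membrane protein and shed to attract T cells, fell 1.31-fold from 111 ± 8.55 to 84.8 ± 2.71 CPM (adjusted p = 3.31e-04). Of its exonic bases 18.3% lie opposite exons of Zmynd15, a gene at 5.44 CPM.

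The neutrophil attractants Cxcl1 and Cxcl5 were low in all libraries and rose. Cxcl5 was at 0.864, 0.496 and 1.02 CPM in control and 1.57, 2.23 and 2.13 CPM in knockout libraries, 2.49-fold higher (log2 fold change 1.31, SE 0.24, adjusted p = 0.00148). Cxcl1, in the same chromosome 5 cluster, was at 1.01, 1.38 and 1.66 CPM in control and 2.27, 1.66 and 2.35 CPM in knockout libraries, so that control replicate 3 and knockout replicate 2 met. Its rise of 1.56-fold (adjusted p = 0.0432) was not called by DESeq2 (0.107), by limma-voom (0.0566) or without control replicate 1 (0.206), control replicate 2 (0.0964), knockout replicate 1 (0.107) or knockout replicate 3 (0.155). Cxcl12, which holds blood stem cells and lymphocytes in place, was at 331, 366 and 411 CPM in control and 351, 484 and 377 CPM in knockout libraries. The groups overlapped, it was not called (adjusted p = 0.575), and its direction turned without knockout replicate 2. Cx3cl1, a membrane-bound chemokine, was at 23.8 ± 4.59 and 22.6 ± 3.73 CPM, not called.

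The windows of Cxcl1, whose call as higher was lost in several fits, and Cxcl14, which was called lower, are shown as examples. A link of either motif to the direction of change was not tested. Cxcl1 (chr5:90890995-90891244, plus strand, with 4 bases of its own exon) holds a pair of overlapping matches to the kappaB motif of NF-kappaB. That motif was found for 10 of 37 members and for 8.23% of all genes, that is for 2 of 12 members called higher (Cxcl1 and Tnfaip3), 0 of 3 called lower, 6 of 19 not called and 2 of 3 not tested. Cxcl14 (chr13:56296552-56296801, minus strand, no annotated exon) holds a match to TTCNNNGAA, the STAT motif. The STAT motif was found for 3 of 37 members (Cxcl14, Tnfrsf1a and Socs3) and for 8.13% of all genes. Of the 3 only Cxcl14 was called. The TCF motif CTTTGAT was found for 1 member, Cxcl12, and for 3.72% of all genes. Capitals mark the kappaB matches in Cxcl1 and the STAT match in Cxcl14.
Cxcl1: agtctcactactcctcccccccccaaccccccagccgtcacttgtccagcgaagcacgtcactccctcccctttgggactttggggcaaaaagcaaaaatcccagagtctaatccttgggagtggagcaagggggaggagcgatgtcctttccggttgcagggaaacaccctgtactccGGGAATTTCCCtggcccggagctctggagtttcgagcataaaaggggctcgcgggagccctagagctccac
Cxcl14: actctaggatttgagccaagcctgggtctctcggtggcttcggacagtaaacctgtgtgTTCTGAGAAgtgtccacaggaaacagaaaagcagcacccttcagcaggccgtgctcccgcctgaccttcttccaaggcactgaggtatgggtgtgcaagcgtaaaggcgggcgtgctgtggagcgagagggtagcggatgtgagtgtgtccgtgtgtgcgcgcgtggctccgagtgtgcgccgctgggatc

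In the interleukin-1 family, the alarm signal Il33 and its receptor were higher and the receptor antagonist was lower. Il33 (ENSMUSG00000024810, chromosome 19, 29925114 to 29960718, plus strand), a nuclear cytokine released from damaged stromal cells, was at 10.2, 10.2 and 10.7 CPM in control and 17.1, 15.6 and 14.9 CPM in knockout libraries. The groups were clearly apart, by 1.53-fold (log2 fold change 0.62, SE 0.083, adjusted p = 1.16e-04). Its receptor Il1rl1 (ST2) was at 60.7, 62.4 and 59.6 CPM in control and 64.2, 88.0 and 86.3 CPM in knockout libraries. Knockout replicate 1 lay close to the controls, and the rise of 1.30-fold (adjusted p = 0.0466) lost its call without any 1 of the control replicates, without knockout replicate 2 or 3 (adjusted p = 0.114 to 0.183 in these 5 fits), without both libraries that stood apart (0.385), and with upper-quartile (0.05) or total count scaling (0.0544).

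Il1rn, which encodes the antagonist that occupies the interleukin-1 receptor without activating it (ENSMUSG00000026981, chromosome 2, 24336853 to 24351494, plus strand), was at 4.29, 3.90 and 5.61 CPM in control and 2.21, 2.29 and 2.32 CPM in knockout libraries. All knockout libraries were below all controls, 2.01-fold lower (log2 fold change -1.01, SE 0.16, adjusted p = 3.62e-04). The receptor it blocks, Il1r1, was at 193 ± 3.89 and 202 ± 3.14 CPM, not called (adjusted p = 0.289). The shared coreceptor Il1rap was at 73.8 ± 3.02 and 81.6 ± 1.5 CPM, 1.11-fold higher and just under the threshold (adjusted p = 0.0496). The call of Il1rap was lost by leaving out any 1 library (adjusted p = 0.0523 to 0.201), without both libraries that stood apart (0.0921), by DESeq2 (0.0905), by limma-voom (0.0515) and with total count scaling (0.0647). Il18, another family member, was at 0.909 ± 0.322 and 1.04 ± 0.0935 CPM, not called, and the receptor of tumour necrosis factor, Tnfrsf1a, was at 113 ± 5.35 and 110 ± 6.59 CPM (log2 fold change -0.03, SE 0.055, adjusted p = 0.736).

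The windows of the ligand Il33 and its receptor Il1rl1 both hold the C/EBP form of the motif, with the same 8 letters. The Il33 window (chr19:29945540-29945789, plus strand) lies before the downstream of 2 RefSeq starts, inside an Il33 intron of the longer transcripts, and the window of the other start holds no match. The Il1rl1 window (chr1:40429320-40429569, plus strand) holds no annotated exon, and a second start of the gene has no match. Gene counts do not tell which start was in use. Capitals mark the TTGCNNAA match.
Il33: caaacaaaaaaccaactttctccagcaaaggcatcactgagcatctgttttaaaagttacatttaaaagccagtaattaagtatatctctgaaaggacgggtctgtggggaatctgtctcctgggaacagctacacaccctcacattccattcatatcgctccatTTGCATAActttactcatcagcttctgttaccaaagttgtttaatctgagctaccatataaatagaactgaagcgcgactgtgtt
Il1rl1: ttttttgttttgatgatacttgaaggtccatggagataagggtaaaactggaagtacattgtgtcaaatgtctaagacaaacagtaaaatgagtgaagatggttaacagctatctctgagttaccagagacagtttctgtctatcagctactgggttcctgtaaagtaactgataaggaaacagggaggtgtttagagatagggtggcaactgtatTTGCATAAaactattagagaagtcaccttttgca

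In the interleukin-6 family, 2 of 5 tested receptor genes rose, 0 fell, and 0 of 3 tested ligand genes were called by edgeR, where 0 of the 3 had an unadjusted p under 0.05, or by DESeq2 or limma-voom. The ligands Il6, Il11 and Lif were at 0.830 ± 0.266, 1.18 ± 0.259 and 1.54 ± 0.193 CPM in control and 1.15 ± 0.126, 1.06 ± 0.348 and 1.81 ± 0.174 CPM in knockout cells (adjusted p = 0.184, 0.672 and 0.39). At these levels the standard error of their log2 fold changes was 0.17 to 0.26, against 0.045 for the abundant Il4ra. The oncostatin M receptor Osmr (ENSMUSG00000022146, chromosome 15, 6813577 to 6874969, minus strand) was at 122, 123 and 129 CPM in control and 153, 174 and 171 CPM in knockout libraries. The groups did not overlap, and the rise was 1.33-fold (log2 fold change 0.41, SE 0.055, adjusted p = 1.13e-04).

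The receptor of leukaemia inhibitory factor, Lifr (ENSMUSG00000054263, chromosome 15, 7090614 to 7197489, plus strand), was at 145, 150.4 and 158 CPM in control and 179, 191 and 199 CPM in knockout libraries. Again all knockout libraries were above the controls, 1.26-fold (log2 fold change 0.33, SE 0.052, adjusted p = 4.51e-04). Their shared signalling chain gp130 (Il6st) was at 546, 560 and 567 CPM in control and 591, 615 and 625 CPM in knockout libraries. It was not called although the groups did not overlap (log2 fold change 0.13, SE 0.046, adjusted p = 0.0585), and it was called by limma-voom (0.0485), without a filter on low counts (0.0451), with a CPM of at least 1 in 3 libraries (0.042) and without both libraries that stood apart (0.04). The specific interleukin-6 receptor Il6ra was at 24.3 ± 0.212 and 24.1 ± 1.89 CPM, not called. Il11ra1 was at 101 ± 3.60 and 91.1 ± 4.16 CPM, not called (adjusted p = 0.0584) but called lower without knockout replicate 1 (0.0317) and with total count scaling (0.0465), and its counts are uncertain because it has near-identical copies.

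Of the other cytokine receptors 1 of 4 changed. Il4ra, the chain shared by interleukin-4 and interleukin-13 receptors (ENSMUSG00000030748, chromosome 7, 125552120 to 125579474, plus strand), was at 466, 446 and 450.0 CPM in control and 331, 318 and 320.3 CPM in knockout libraries. The groups were far apart for their spread, 1.41-fold lower (log2 fold change -0.49, SE 0.045, adjusted p = 5.27e-06). Il13ra1, Il17ra and Il10rb, partner or related receptor chains, had log2 fold changes of -0.02, -0.02 and 0.07 with standard errors of 0.089, 0.047 and 0.070, and none was called.

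Of the other cytokine ligands, Il15, which sustains natural killer and memory T cells, was at 1.91, 1.95 and 2.22 CPM in control and 2.81, 3.06 and 3.25 CPM in knockout libraries, 1.5-fold higher (adjusted p = 0.0104). It was not called without control replicate 1 (adjusted p = 0.0556). Csf1, the growth factor of macrophages, was at 314, 324 and 359 CPM in control and 338, 418 and 362 CPM in knockout libraries. Its groups overlapped and it was not called (log2 fold change 0.17, SE 0.078, adjusted p = 0.163), but it was called higher without knockout replicate 1 (0.0373), without both libraries that stood apart (0.0473) and without a filter on low counts (0.00667). Without knockout replicate 2 the log2 fold change of Csf1 was 0.074 (adjusted p = 0.398). Il34, which acts on the same receptor, was at 0.513 ± 0.119 and 0.604 ± 0.0541 CPM, not called.

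Prostaglandin E2 is made by the cyclooxygenases Ptgs1 and Ptgs2 followed by a terminal synthase such as Ptges. Ptges (ENSMUSG00000050737, chromosome 2, 30889471 to 30929863, minus strand) was at 49.0, 46.0 and 50.8 CPM in control and 72.8, 72.0 and 75.1 CPM in knockout libraries. The spread within each group was small beside the difference, which was 1.51-fold (log2 fold change 0.59, SE 0.053, adjusted p = 4.51e-06). The inducible cyclooxygenase Ptgs2 was at 11.4, 12.0 and 14.8 CPM in control and 13.9, 16.9 and 21.5 CPM in knockout libraries and missed the threshold (log2 fold change 0.45, SE 0.17, adjusted p = 0.091). Ptgs2 was called higher by DESeq2 (0.0101), without a filter on low counts (6.10e-06), without control replicate 3 (0.0476) and without knockout replicate 1 (0.00629). Without knockout replicate 3 its log2 fold change was 0.28.

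The feedback inhibitors of JAK-STAT and NF-kappaB signalling were mostly not called. Of 4 SOCS family genes 1 rose: Cish, a feedback target of STAT5, was at 2.47, 3.26 and 3.24 CPM in control and 3.98, 4.81 and 4.89 CPM in knockout libraries, 1.53-fold higher (adjusted p = 0.00764), but not without control replicate 1 (0.0576). Socs3, the feedback inhibitor of gp130 signalling, was at 22.4 ± 0.657 and 19.99 ± 0.733 CPM with no overlap but missed the threshold (log2 fold change -0.17, SE 0.066, adjusted p = 0.0931). Socs2, which restrains growth hormone signalling, was at 128 ± 6.50 and 123 ± 4.24 CPM, and Socs1 at 6.00 ± 0.805 and 6.22 ± 1.21 CPM, neither called.

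Of 4 NF-kappaB genes 1 rose. Tnfaip3, the ubiquitin-editing inhibitor A20, was at 11.0, 10.5 and 12.0 CPM in control and 14.4, 12.8 and 15.1 CPM in knockout libraries, 1.26-fold higher (adjusted p = 0.0154). The call was lost without control replicate 1 (adjusted p = 0.0699), without control replicate 2 (0.0761) and without knockout replicate 3 (0.085). Nfkbia, which holds NF-kappaB in the cytoplasm, was at 52.7 ± 1.84 and 58.4 ± 1.81 CPM with no overlap but missed the threshold (log2 fold change 0.15, SE 0.052, adjusted p = 0.0613), except with a CPM of at least 1 in 3 libraries (0.042). The subunit genes Nfkb1 (82.1 ± 0.493 and 80.5 ± 4.59 CPM), and Relb (20.5 ± 0.683 and 19.9 ± 0.323 CPM) were not called, with log2 fold changes of -0.03 and -0.04.

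In all, 7 lists of related genes that are not members were set beside them. Of 185 listed genes 119 were tested, and 13 rose and 11 fell (20.2% called, against 22.4% of all tested genes). Their median log2 fold change was 0.04. Without both libraries that stood apart, 17 of these genes were called higher and 14 lower, of 3957 called in the whole table. Without knockout replicate 3 the number called higher was 8, and without control replicate 1 the number called lower was 7. The whole table held 2178 and 2145 called genes in these fits, against 3346 in the main fit.

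The further acute-phase genes were the list with the most rises: 7 of 12 tested genes rose and 1 fell. Their median log2 fold change was 0.42, and 66.7% were called, against 22.4% of all tested genes. Lbp, the binding protein of bacterial lipopolysaccharide, was at 18.8, 20.2 and 22.1 CPM in control and 31.2, 34.3 and 31.6 CPM in knockout libraries, 1.59-fold higher (adjusted p = 2.03e-05). The copper carrier ceruloplasmin (Cp) rose 1.57-fold from 45.7 ± 3.23 to 71.9 ± 7.83 CPM, and the metalloreductase Steap4 rose 1.5-fold from 62.4 ± 4.35 to 93.7 ± 8.42 CPM. Serpina3m, a paralog of Serpina3n, fell 1.19-fold but was not called by DESeq2 (0.0509) or in 3 of the fits that leave out 1 library (control replicates 1 and 2 and knockout replicate 1, adjusted p = 0.0699 to 0.09), and its counts are uncertain among near-identical paralogs. The rises of Lbp, Cp and Steap4 were called in all 15 alternatives, and here too the adipocyte markers were higher in the same libraries, whose part was not tested.

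In the machinery of NF-kappaB, 13.5% of 37 tested genes were called, below the 22.4% of all tested genes. Of the 37, 4 rose and 1 fell (median log2 fold change 0.05). The kinase-like adaptors of interleukin-1 and Toll-like receptors were among them: Irak2 rose 1.35-fold from 14.5 ± 0.542 to 19.6 ± 0.719 CPM (adjusted p = 6.68e-04), and Irak3, an inhibitory member, rose 1.30-fold from 19.4 ± 1.38 to 25.2 ± 1.37 CPM (adjusted p = 0.00235). Map3k14, the kinase of the noncanonical route, was 1.22-fold higher (adjusted p = 0.0478) and lost the call by DESeq2 (0.0835), by limma-voom (0.0528), with total count scaling (0.0517), without both libraries that stood apart (0.0661) and without any 1 library but control replicate 3 (0.0505 to 0.181). Tradd, an adaptor of Tnfrsf1a, was 1.20-fold lower (adjusted p = 0.0142), and was not called without control replicate 1 (0.0562) or knockout replicate 3 (0.064).

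In the JAK-STAT machinery, 12.5% of 24 tested genes were called, also below the 22.4% of all tested genes. Of the 24, 1 rose and 2 fell (median log2 fold change 0.01). Jak1, the kinase used by gp130 and by the interleukin-4 receptor, was at 441, 456 and 446 CPM in control and 376, 354 and 363 CPM in knockout libraries, with no overlap and 1.23-fold lower (adjusted p = 3.53e-04). Stat5a rose 1.32-fold from 29.8 ± 2.20 to 39.4 ± 3.59 CPM (adjusted p = 0.00167). Pias2, a SUMO ligase that binds STAT factors, was 1.11-fold lower at the edge of the threshold (adjusted p = 0.0493) and lost the call in most fits, among them DESeq2 (0.108), limma-voom (0.0502) and each fit that left out 1 library other than knockout replicate 2 (0.0539 to 0.195).

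Of 24 tested further cytokines and receptors, 0 rose and 3 fell, all of them receptors (12.5% called, against 22.4% of all tested genes). The decoy receptors Il13ra2 and Il1r2, which bind interleukin-13 and interleukin-1 without signalling, fell 2.17-fold (1.32 ± 0.202 to 0.610 ± 0.196 CPM, adjusted p = 0.00581) and 1.32-fold (15.9 ± 1.23 to 12.1 ± 0.453 CPM, adjusted p = 0.00323). Crlf2, a chain of the receptor of the lymphopoietin Tslp, fell 1.28-fold, a call lost without control replicate 1 (0.0682), knockout replicate 1 (0.0565) or knockout replicate 3 (0.0708). Of 22 chemokine receptors 20 were below the filter. Ackr3, which scavenges Cxcl12, was tested and fell 1.76-fold, from 19.3, 17.9 and 19.9 CPM in control to 9.77, 12.0 and 10.5 CPM in knockout libraries (log2 fold change -0.82, SE 0.090, adjusted p = 2.11e-05). Of 22 further chemokine ligands 15 were below the filter and 0 of the 7 tested were called in edgeR, where 1 had an unadjusted p under 0.05.

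Of 13 tested further prostaglandin genes, 1 rose and 3 fell (30.8% called, against 22.4% of all tested genes). The constitutive cyclooxygenase Ptgs1 was at 126, 123 and 126 CPM in control and 104, 101 and 99.6 CPM in knockout libraries, 1.23-fold lower (adjusted p = 2.65e-04), while Ptges2, another terminal synthase, rose 1.24-fold (adjusted p = 0.00188). The prostacyclin receptor gene Ptgir fell 1.63-fold, with means of 22.8 and 14.0 CPM (adjusted p = 1.98e-05).

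**Figure D5:**
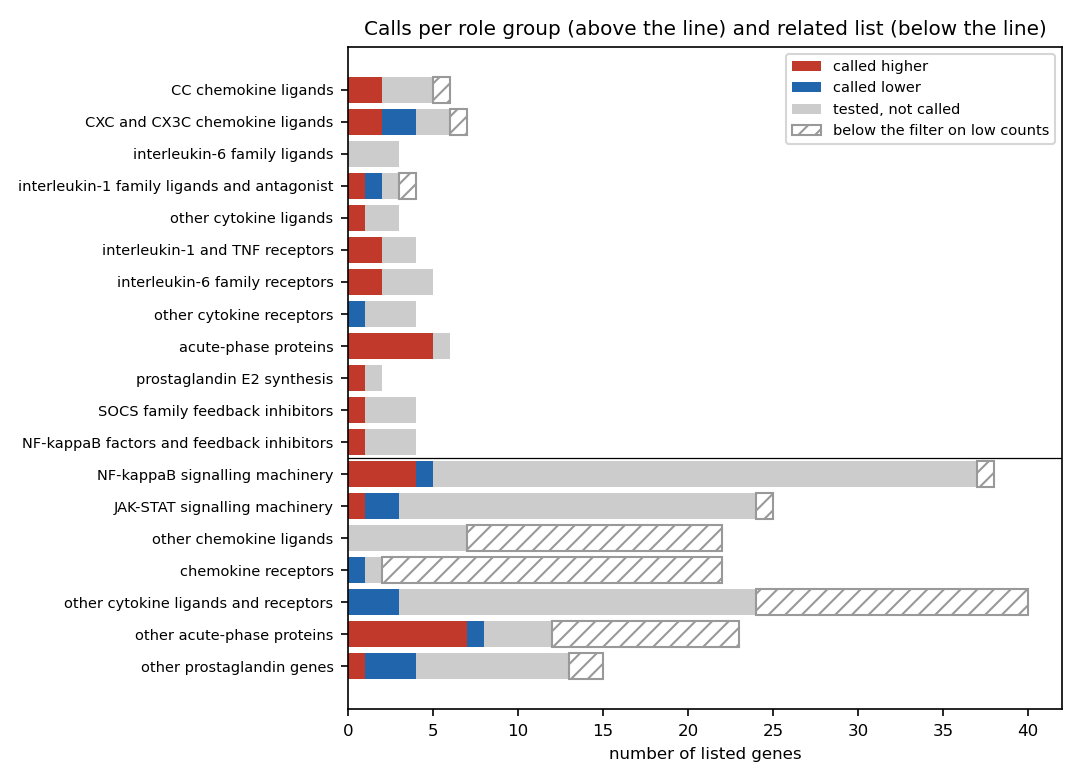
Number of listed genes called higher, called lower, tested but not called, or below the filter on low counts, for the 12 role groups of members (above the line) and the 7 related lists (below the line). Acute-phase genes show the most rises above and below the line, 5 of 6 tested members and 7 of 12 tested further genes, and most chemokine receptors and further chemokine ligands were below the filter.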

How the data were processed

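Gene expression was measured by RNA sequencing in libraries that keep strand, made after ribosomal RNA was removed (per the labels' protocols), from 3 control and 3 knockout samples. The authors deposited unnormalized counts of reads for 49671 Ensembl genes. GRCm38, DESeq2 1.16.0, featureCounts 1.5.1 and STAR 2.5.2b are listed in the submitters' processing notes, without roles. The sources used here do not give the annotation release, strand setting or handling of multi-mapping reads. Columns were assigned by the library number in the titles and groups by the genotype label. Of the Ensembl identifiers 49326 had a symbol. Coordinates and exon lengths are those of GENCODE M21 (GRCm38).

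Knockout and control were compared with edgeR 4.0.16 in R 4.3.3 (TMM, filterByExpr, robust quasi-likelihood F-test, group as the only term, Benjamini-Hochberg adjustment over 14946 genes, threshold 0.05). The SE is the absolute log2 fold change over the root of F. Levels are TMM-scaled CPM. Alternatives were other scalings and filters, DESeq2 1.42.0, limma-voom (limma 3.58.1), a threshold of 0.01 and leaving out each library; leaving out both control replicate 3 and knockout replicate 2, the values of single named genes of the related lists under each alternative, and the ratios of chemokine neighbours were added after seeing the data. The fit was tested on simulated data.

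Members and lists were chosen with earlier results of these data known. Text names every called member, the most abundant member of each role group, and up to 3 called genes per direction of each related list (average log2 CPM 0 or more); other members are given briefly. A gene that this rule names among the prostaglandin genes is not reported here.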

Additional observations from a re-analysis of the deposited data

How the results depend on the processing

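The calls of 12 members, the 4 falls among them, held in all 15 alternatives: leaving out each library, other scalings (total count, upper quartile or the size factors of DESeq2 in place of TMM) and filters, DESeq2, limma-voom, a threshold of 0.01 and leaving out both libraries that stood apart. With 1 library left out, 10 to 19 members were called higher (main 18) and 4 to 5 lower (main 4), and the member median was 0.12 to 0.18 on the log2 scale. Related genes called higher then numbered 8 to 13 (main 13), related genes called lower 7 to 14 (main 11), and 2145 to 3475 genes were called in the whole table (main 3346). At an adjusted p of 0.01, 10 members and 8 related genes were called higher, 7 related genes lower and 1934 genes in all. Fewer samples enter the fits that leave out a library.

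Some members that were not called changed sign. When 1 library was left out the log2 fold change ran from -0.0199 to 0.22 for Cxcl12, from -0.22 to 0.0832 for Cx3cl1, from -0.0467 to 0.48 for Il18, from -0.0803 to 0.0336 for Il6ra, from -0.0601 to 0.0353 for Il13ra1, from -0.11 to 0.18 for Socs1 and from -0.0519 to 0.0200 for Nfkb1. Without control replicate 2 it was 1.15e-04 for Il13ra1 and -0.0388 for Socs1. Without both libraries that stood apart it was 0.0903 for Il11, 0.0034 for Il13ra1 and -0.018 for Socs1. The cause was not tested. No paired analysis was possible because the library numbers in the labels run on across the groups and no number is shared. At about 1 CPM, as for Il6, Il11, Il18 and Cxcl5, counting limits the precision.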
